A study of Mus musculus with 22 samples.

Results

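Fatty acid oxidation and ketogenesis were followed through 30 genes: those named as members of this module that occur in the gene column of the deposited table of expected counts. All 30 were found among the 55291 genes of the table, and each was described in all 6 treatment groups. The genes encode the enzymes that activate fatty acids and carry them into mitochondria, the mitochondrial and peroxisomal oxidation enzymes, the electron transfer flavoprotein and its dehydrogenase, enzymes of ketone body metabolism, and regulators. The study tested adeno-associated virus serotype 9 (AAV9) vectors carrying human ST3GAL5, the GM3 ganglioside synthase gene, and asked what systemic delivery does to the liver. Male wild-type C57BL/6 pups were injected intravenously on postnatal day 1, and their livers were collected 36 hours later for poly(A) RNA sequencing. 4 pups received buffer (PBS), 4 received empty capsids (AAV9.empty) and 4 received EGFP under the CB promoter (AAV9.EGFP). 3 received ST3GAL5 under the same CB promoter (rAAV9-ST3GAL5.v1), 3 received the same promoter with ST3GAL5 bearing the E332K change (E332K), and 4 received ST3GAL5 under the neuronal Syn1 promoter with binding sites for miR-122 (rAAV9-ST3GAL5.v2). The CB promoter is active in most cell types, miR-122 is abundant in hepatocytes, and all 22 pups kept their own mouse St3gal5. The labels do not say whether pups shared a litter, so a p-value here rests on liver-to-liver spread, part of which may be technical.

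Fatty acids enter oxidation as coenzyme A esters. The carnitine shuttle moves them across the inner mitochondrial membrane, with carnitine palmitoyltransferase 1 as the regulated entry step. Inside, repeated rounds of dehydrogenation, hydration, a further dehydrogenation and thiolysis shorten the chain and release acetyl-CoA, which the liver can turn into ketone bodies for export to other organs. Newborn rodent liver relies on this pathway as milk fat becomes the main fuel. PPARA, a nuclear receptor for fatty acids, and the coactivator PGC-1alpha are known to drive many of these genes.

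Libraries held between 17164500 and 24305800 expected counts. Between 17.95% and 24.24% of the counts came from the 10 most abundant genes. Levels are given as CPM, the counts set to a common library total with TMM scaling over the 22 libraries, and as the deposited TPM, which also divides by transcript length, where genes are compared with each other. A call means an adjusted p of at most 0.05 in the quasi-likelihood test of edgeR, fitted on all expressed genes of the groups compared, and log2 fold changes carry their standard error (SE). All 30 genes passed the filter on low counts in all 9 comparisons. Bulk liver was sequenced, so fewer cells of a type and less RNA per cell cannot be told apart. Hepatocyte markers were abundant in every liver and were lower with rAAV9-ST3GAL5.v1: the 13 measured markers summed to between 114521 and 137249 CPM in AAV9.empty and between 83779 and 105503 CPM in rAAV9-ST3GAL5.v1.

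The genes spanned a wide range of levels in the livers of buffer-injected pups. In PBS livers, 18 of the 30 genes averaged above 100 TPM and 2 averaged below 10 TPM. Acaa2, the mitochondrial 3-ketoacyl-CoA thiolase, was highest at 657 ± 59.8 TPM (SD, n = 4). It was followed by Etfb, the beta subunit of the electron transfer flavoprotein, at 563 ± 41.3 TPM, and by the ketone body dehydrogenase Bdh1 at 397 ± 13.2 TPM. Acaa2 and Etfb differed by about the sum of their SDs. The values of Etfb are uncertain: 58.2% of its exonic bases are shared with gene models on the same strand, Gm45233 among them, and 49.9% of the 31-base words of its transcripts also occur in other genes. Its expected counts were not whole in 54.5% of the livers, where the counting program split reads between genes. The levels of Hadh (293 ± 12.8 TPM), which encodes the 3-hydroxyacyl-CoA dehydrogenase for short and medium chains, came next. Acadvl, Hadhb, Acaa1b and Acadl, at 239, 236, 233 and 226 TPM, differed by less than the SD of Acaa1b. The regulators stood at the low end. Ppara averaged 53.6 ± 7.76 TPM, Pdk4 averaged 6.86 ± 1.26 TPM and Ppargc1a averaged 1.44 ± 0.583 TPM.

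Promoter sequence was available from RefSeq (build GRCm38.p6) for 25 of the 30 genes, in 27 windows that reach from 250 bases before the start of the gene to 50 bases after it. PPARA binds with its partner RXR to a direct repeat: 2 copies of AGGTCA with 1 base (N) between them. This word was searched on both strands with up to 2 mismatches outside the spacer. It occurred in the windows of 3 genes (Echs1, Etfa and Slc25a20), that is in 3 of 27 member windows (11.1%), and in 3.86% of all 32851 windows. The matches are shown because these are the genes whose windows hold the word, with the matching 13 bases in capitals and each sequence written along the strand of the gene.
Echs1, chr7:140116484-140116512, minus strand: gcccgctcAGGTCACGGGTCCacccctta
Etfa, chr9:55512300-55512328, minus strand: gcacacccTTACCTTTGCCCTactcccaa
Slc25a20, chr9:108662134-108662162, plus strand: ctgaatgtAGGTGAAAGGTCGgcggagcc
In Etfa the word lies on the opposite strand and reads AGGGCAAAGGTAA. A match of letters is a description and not a measured binding site. The GC box GGGCGG, searched on both strands, occurred in 19 of the 27 member windows (70.4%) and in 35.7% of all windows. The TATA box word TATAAA occurred in 0 of the 27 member windows, on either strand, and in 13.6% of all windows.

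Hadha and Hadhb encode the alpha and beta subunits of the mitochondrial trifunctional protein, and they lie head to head on chromosome 5. Hadha runs on the minus strand at chr5:30118304-30155162 and Hadhb on the plus strand at chr5:30155248-30184593 (GENCODE annotation of GRCm38). The 85 bases between the 2 genes are shown because both genes are transcribed away from them, with the GC box word in capitals where it occurs, 2 times in all.
chr5:30155163-30155247, plus strand: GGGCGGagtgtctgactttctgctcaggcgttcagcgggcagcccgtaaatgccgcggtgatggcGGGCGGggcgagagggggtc

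Most of the module was lower in the livers that received rAAV9-ST3GAL5.v1. Against AAV9.empty, 24 of the 30 genes fell and 0 rose, where 14.3% of the 14876 genes tested were called lower and 13.8% higher. The median log2 fold change of the 30 genes was -0.58, beside 0.02 for all genes tested. In 27 genes every rAAV9-ST3GAL5.v1 liver lay below every AAV9.empty liver, and in 0 genes above, separations seen in 19.3% and 18.2% of all genes tested. The changes were moderate in size. Only Ppara and Acsl1 fell at least 2-fold and 0 rose as much, as did 3.78% and 4.21% of all genes tested. The 6 genes that were not called were Acaa1b, Ehhadh, Eci2, Crot, Acadl and Pdk4. The summed level of the 30 genes was between 4619 and 6229 CPM in rAAV9-ST3GAL5.v1 and between 7660 and 8363 CPM in AAV9.empty, and it lay between 7173 and 9327 CPM in the livers of the other 4 groups. The rAAV9-ST3GAL5.v1 livers differed among themselves: replicate 2 was the lowest of the 3 in 24 genes and replicate 3 the highest in 27. The median coefficient of variation over the 30 genes was 17.5% in this group and 6.36% in AAV9.empty. Hepatocyte markers fell beside these genes, with 9 of 13 called lower, 3 called higher and a median log2 fold change of -0.55. By limma on log2(TPM + 1), 14 of the 30 genes were called lower. Counts under this and the other alternatives stand without the share of all genes called by the same method. When expression was scaled to the hepatocyte markers, an alternative chosen after seeing the data, 10 of the 30 genes were called lower. That scale moved the median of all genes tested from 0.02 to 0.24 and that of the 30 genes from -0.58 to -0.34. The scale was the geometric mean of all 13 markers, the 3 called higher included, so it shifted by less than the median marker fell. On the main scale the median of the markers, -0.55, was close to that of the 30 genes, -0.58.

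**Figure D1:**
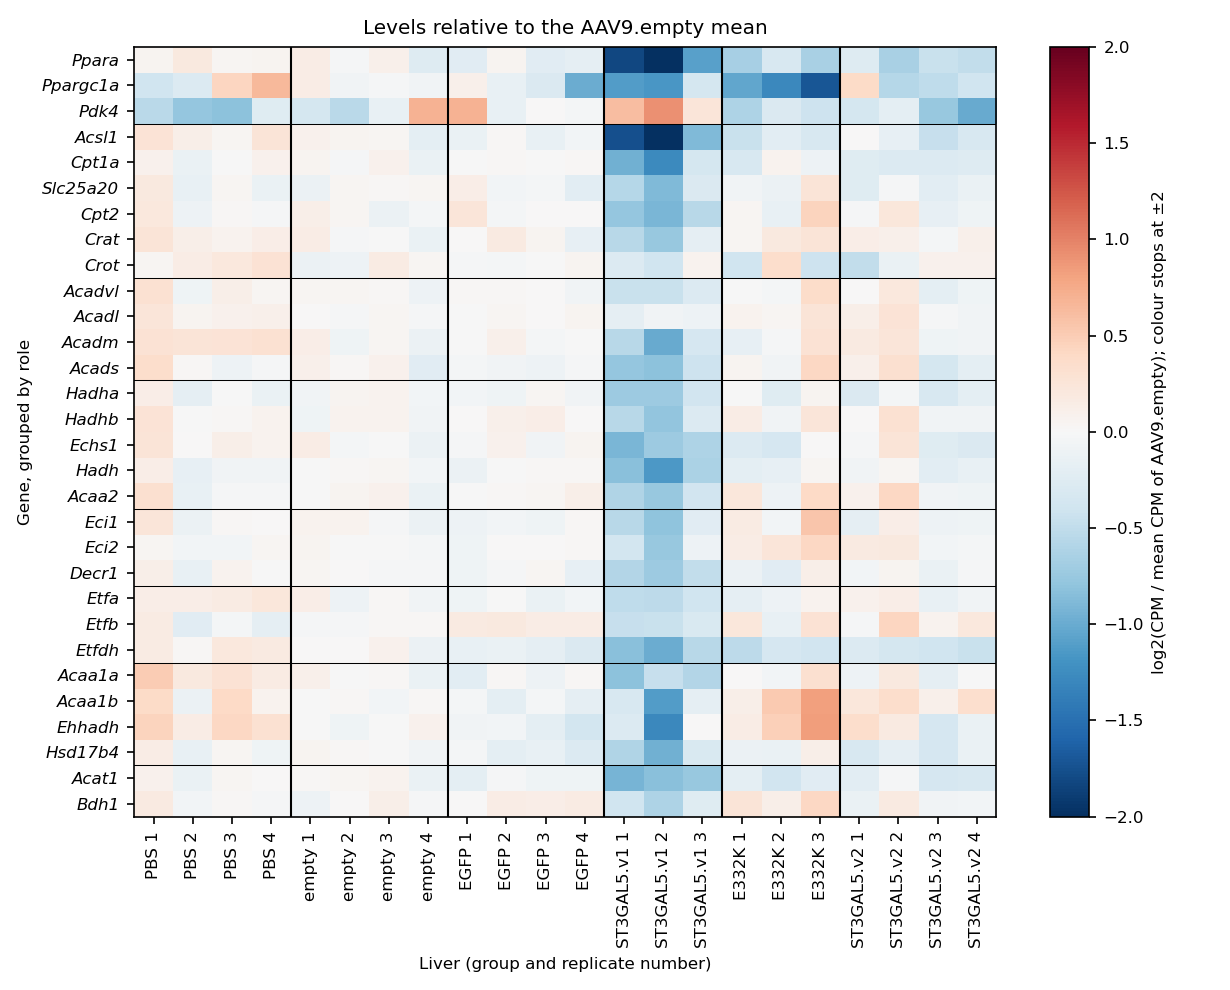
Level of each of the 30 genes (rows, grouped by role) in each of the 22 livers (columns, by group and replicate), as the log2 ratio of its CPM to the mean CPM of AAV9.empty, blue where lower and red where higher, with the colour scale ending at -2 and 2. The 3 rAAV9-ST3GAL5.v1 columns are mostly blue, with a median of -0.56 and a lowest value of -2.79, while the medians of the other groups lie between -0.08 and 0.06.

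The regulators held some of the widest differences. Ppara (chr15:85734983-85802819, plus strand in the same annotation) encodes the fatty acid-sensing nuclear receptor. It measured 51.7, 56.6, 50.7 and 51.7 CPM in PBS, 54.96, 48.6, 53.2 and 41.4 in AAV9.empty, and 42.5, 51.7, 42.3 and 43.8 in AAV9.EGFP. It measured 14.05, 9.19 and 23.3 CPM in rAAV9-ST3GAL5.v1, 31.1, 39.5 and 31.6 in E332K, and 41.5, 31.4, 36.2 and 35.2 in rAAV9-ST3GAL5.v2. The 3 rAAV9-ST3GAL5.v1 livers were the lowest of all 22. Relative to AAV9.empty, Ppara fell 3.16-fold with rAAV9-ST3GAL5.v1 (log2 fold change -1.66, SE 0.26, adjusted p = 0.00184). It also fell with E332K (log2 fold change -0.55, SE 0.12, adjusted p = 0.0106) and with rAAV9-ST3GAL5.v2 (log2 fold change -0.45, SE 0.10, adjusted p = 0.0303). The call with E332K was lost without E332K replicate 1 (adjusted p = 0.0526), and that with rAAV9-ST3GAL5.v2 without AAV9.empty replicate 1, 2 or 3 or rAAV9-ST3GAL5.v2 replicate 3 or 4 (adjusted p of 0.0508 to 0.0945). The E332K livers lay below every AAV9.empty liver, and the rAAV9-ST3GAL5.v2 livers overlapped them. On the deposited TPM scale the difference with rAAV9-ST3GAL5.v1 had the same direction (-1.22 by limma on log2(TPM + 1), adjusted p = 0.00389). The other comparisons turned on that scale, to 0.10 for E332K and 0.13 for rAAV9-ST3GAL5.v2, with adjusted p-values of 0.75 and 0.701, as did that of E332K with AAV9.EGFP, from -0.41 on the count scale to 0.30 (adjusted p = 0.488). TPM divides by an estimated transcript length. For Ppara the ratio of TPM to CPM ran from 0.612 to 1.85 over the livers, a 3.03-fold spread that was the widest of the 30 genes. It was 0.745 to 1.12 in AAV9.empty, 0.869 to 1.85 in rAAV9-ST3GAL5.v1, 1.31 to 1.53 in E332K and 1.15 to 1.60 in rAAV9-ST3GAL5.v2. The lower Ppara level with rAAV9-ST3GAL5.v1 was thus seen on both scales, with a smaller difference in TPM. That with E332K and rAAV9-ST3GAL5.v2 was seen on the count scale only.

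**Figure D2:**
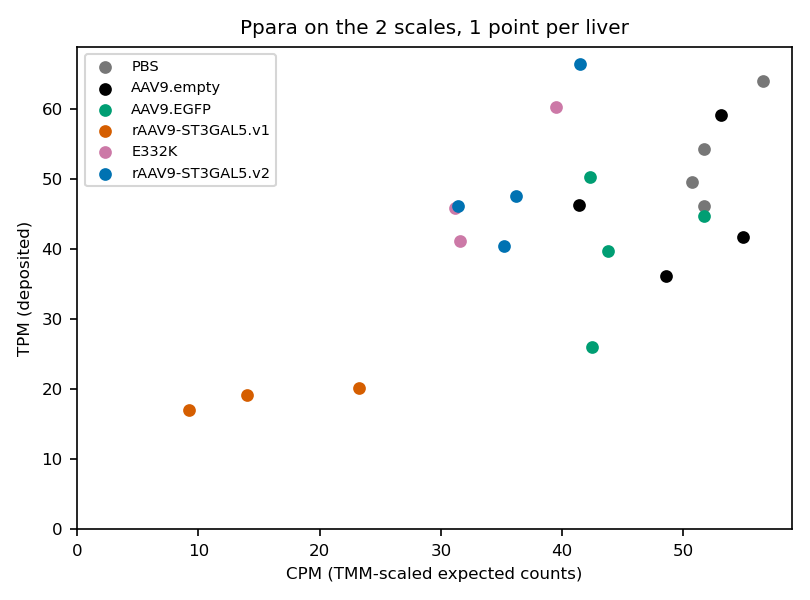
Ppara in each of the 22 livers, with CPM from the expected counts on the horizontal axis and the deposited TPM on the vertical axis, 1 point per liver and 1 colour per group. The E332K and rAAV9-ST3GAL5.v2 livers have 1.15 to 1.60 TPM per CPM and the AAV9.empty livers 0.745 to 1.12, so the order of these groups differs between the axes.

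Ppargc1a (chr5:51454250-51567726, minus strand) encodes the coactivator PGC-1alpha and was the least abundant of the 30 genes. It measured 5.35, 5.85, 9.51 and 11.1 CPM in PBS, 7.85, 6.75, 6.97 and 6.70 in AAV9.empty, and 7.62, 6.41, 5.77 and 3.57 in AAV9.EGFP. It measured 3.26, 3.14 and 5.56 CPM in rAAV9-ST3GAL5.v1, 3.45, 2.89 and 2.15 in E332K, and 9.17, 4.76, 5.00 and 5.36 in rAAV9-ST3GAL5.v2. All E332K livers and all rAAV9-ST3GAL5.v1 livers lay below all AAV9.empty livers. Ppargc1a fell 2.5-fold with E332K (log2 fold change -1.32, SE 0.19, adjusted p = 0.000771) and 1.75-fold with rAAV9-ST3GAL5.v1 (log2 fold change -0.81, SE 0.21, adjusted p = 0.0211). The direct test between both vectors was not called (rAAV9-ST3GAL5.v1 against E332K, log2 fold change 0.52, SE 0.30, adjusted p = 0.237). The call with rAAV9-ST3GAL5.v1 was lost without replicate 1 of either group, with adjusted p-values of 0.0837 without that of rAAV9-ST3GAL5.v1 and 0.0586 without that of AAV9.empty, and it was also lost on the log2(TPM + 1) scale (-0.35, adjusted p = 0.052). PBS livers alone spanned 5.35 to 11.1 CPM, so the buffer group overlapped AAV9.empty on both sides.

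Pdk4 (chr6:5483351-5496309, minus strand) encodes the kinase that holds pyruvate dehydrogenase inactive and so spares glucose when fat is burned. It was the only one of the 30 genes with a positive fold change under rAAV9-ST3GAL5.v1. It measured 19.6, 16.6, 16.2 and 24.2 CPM in PBS, 22.3, 19.5, 25.8 and 46.4 in AAV9.empty, and 45.9, 25.7, 28.8 and 27.7 in AAV9.EGFP. It measured 43.9, 53.8 and 33.7 CPM in rAAV9-ST3GAL5.v1, 18.6, 23.3 and 21.4 in E332K, and 22.4, 24.8, 16.8 and 14.1 in rAAV9-ST3GAL5.v2. AAV9.empty replicate 4 stood inside the rAAV9-ST3GAL5.v1 range, and Pdk4 was not called against AAV9.empty (log2 fold change 0.63, SE 0.28, adjusted p = 0.124). Without that liver the log2 fold change was 0.95 (adjusted p = 0.00817). Pdk4 was also not called against AAV9.EGFP (log2 fold change 0.46), whose livers overlapped those of rAAV9-ST3GAL5.v1. It was higher in every rAAV9-ST3GAL5.v1 liver than in any E332K or rAAV9-ST3GAL5.v2 liver. The differences were 2.13-fold against E332K (log2 fold change 1.09, SE 0.18, adjusted p = 0.00806) and 2.29-fold against rAAV9-ST3GAL5.v2 (log2 fold change 1.2, SE 0.22, adjusted p = 0.00566).

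**Figure D3:**
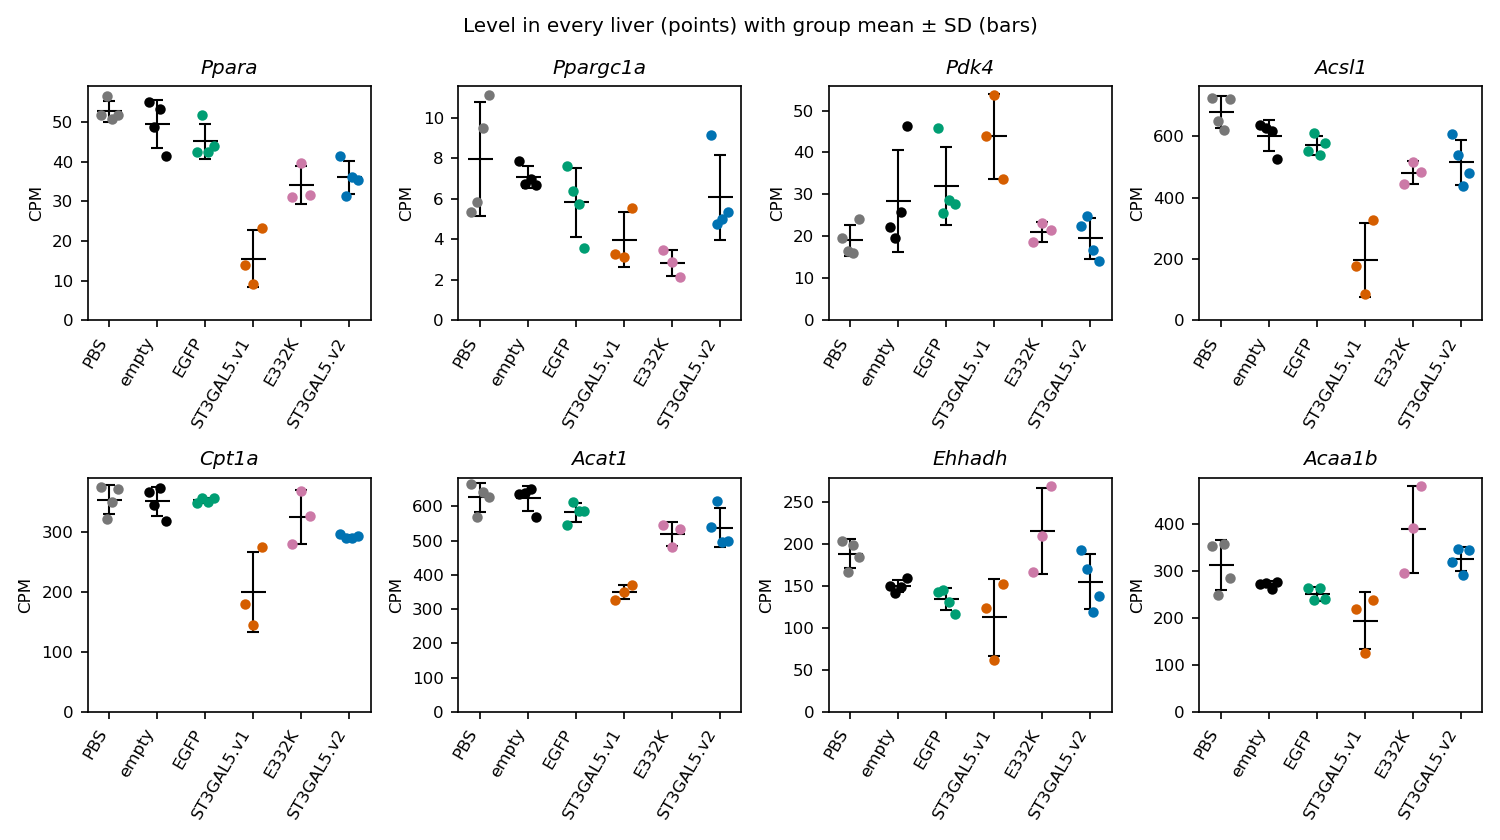
CPM of 8 genes in every liver (points) with the mean and SD of each group (bars), 1 panel per gene, each axis starting at 0. Ppara, Acsl1, Cpt1a and Acat1 lie lowest in rAAV9-ST3GAL5.v1, Pdk4 has its highest rAAV9-ST3GAL5.v1 liver at 53.8 CPM, and Ehhadh and Acaa1b reach their highest livers in E332K at 268 and 481 CPM.

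Activation and the carnitine shuttle fell together under rAAV9-ST3GAL5.v1, with 5 of 6 genes called lower and a median log2 fold change of -0.63. Acsl1 (chr8:46471037-46536051, plus strand), the long-chain acyl-CoA synthetase that makes the substrate of the shuttle, changed most. It measured 725, 651.7, 620.9 and 721.7 CPM in PBS, 637.3, 627.2, 617 and 527 in AAV9.empty, and 551.3, 611.6, 540.9 and 579.9 in AAV9.EGFP. It measured 177.6, 87.3 and 327 CPM in rAAV9-ST3GAL5.v1, 444.2, 518.1 and 483.9 in E332K, and 606.6, 538.8, 438 and 479.9 in rAAV9-ST3GAL5.v2. All rAAV9-ST3GAL5.v1 livers were below all other livers, and they were spread widely among themselves. Acsl1 fell 3.03-fold (log2 fold change -1.6, SE 0.35, adjusted p = 0.00905). Its level was also lower with E332K (log2 fold change -0.33, SE 0.10, adjusted p = 0.0436), a call that was lost without AAV9.empty replicate 1, 2 or 3 or E332K replicate 1 or 3, with adjusted p-values of 0.0704 to 0.156. Part of the exonic sequence of Acsl1 (9.91%) is shared with an antisense gene model, and the libraries were prepared with a kit that does not mark strand.

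Cpt1a (chr19:3322334-3385733, plus strand) encodes the liver form of carnitine palmitoyltransferase 1, the entry gate. It measured 374.6, 321.4, 349.6 and 371.5 CPM in PBS, 366.2, 344.6, 374.3 and 319.2 in AAV9.empty, and 348.5, 357.3, 350.8 and 356.7 in AAV9.EGFP. It measured 179.4, 145.8 and 275.3 CPM in rAAV9-ST3GAL5.v1, 279.9, 369.3 and 327 in E332K, and 296, 289.5, 290.5 and 294.3 in rAAV9-ST3GAL5.v2. The rAAV9-ST3GAL5.v1 livers lay below all others, with replicate 3 (275 CPM) close to the lowest E332K liver (279.9 CPM). Cpt1a fell 1.74-fold (log2 fold change -0.8, SE 0.18, adjusted p = 0.0112). The rAAV9-ST3GAL5.v2 livers also lay below every AAV9.empty liver, within 289 and 296 CPM, a difference that was not called (log2 fold change -0.26, SE 0.08, adjusted p = 0.0729).

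Slc25a20 encodes the carnitine-acylcarnitine translocase of the inner membrane, and Cpt2 the enzyme that returns the acyl group to coenzyme A inside. Slc25a20 measured 93.9, 74.2, 84.3 and 74.6 CPM in PBS, 75.5, 84.5, 83.6 and 83.9 in AAV9.empty, and 90.2, 79.2, 79.8 and 70.7 in AAV9.EGFP. Its levels were 55.3, 44.5 and 67.2 CPM in rAAV9-ST3GAL5.v1, 78.02, 75.5 and 97.8 in E332K, and 69.1, 80.7, 70.7 and 74.3 in rAAV9-ST3GAL5.v2. It fell 1.46-fold under rAAV9-ST3GAL5.v1, with no overlap with AAV9.empty (log2 fold change -0.55, SE 0.13, adjusted p = 0.0113). Cpt2 measured 108.6, 87.4, 94.9 and 91.9 CPM in PBS, 101.2, 95.8, 86.2 and 91.7 in AAV9.empty, and 110.3, 90.9, 94.1 and 94.6 in AAV9.EGFP. Its levels were 55.1, 49.9 and 64.05 CPM in rAAV9-ST3GAL5.v1, 96.6, 85.00 and 127.3 in E332K, and 91.8, 110.1, 83.7 and 88.8 in rAAV9-ST3GAL5.v2. It fell 1.65-fold (log2 fold change -0.72, SE 0.10, adjusted p = 0.00105), and every rAAV9-ST3GAL5.v1 liver lay below every other liver. Crat, the carnitine acetyltransferase, was called lower (log2 fold change -0.46, adjusted p = 0.0276). Crot, the peroxisomal carnitine octanoyltransferase, was not (log2 fold change -0.18, adjusted p = 0.303), and its rAAV9-ST3GAL5.v1 and AAV9.empty livers overlapped.

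The enzymes of the mitochondrial spiral showed the same direction, with one exception in size. Of the 4 acyl-CoA dehydrogenases, which carry out the opening step for chains of different length, Acads (short chain, log2 fold change -0.65), Acadm (medium chain, -0.59) and Acadvl (very long chain, -0.37) were called lower under rAAV9-ST3GAL5.v1. Acadl (long chain) was not called (-0.10, SE 0.07, adjusted p = 0.31). Its levels were 290 to 313 CPM in rAAV9-ST3GAL5.v1 and 322 to 337 CPM in AAV9.empty, which did not overlap. The value for Acadvl is uncertain in one respect: 42.9% of its exonic bases are shared with the opposite-strand gene Dvl2.

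All 5 remaining spiral enzymes were called lower under rAAV9-ST3GAL5.v1, with log2 fold changes between -0.85 and -0.51. Hadh measured 482.5, 391.9, 417.9 and 415.9 CPM in PBS, 438.8, 445.8, 449.4 and 421.5 in AAV9.empty, and 406.5, 435.7, 447.5 and 446.9 in AAV9.EGFP. It measured 244.9, 198.2 and 283.1 CPM in rAAV9-ST3GAL5.v1, 382, 389.9 and 451.8 in E332K, and 418.4, 448.6, 379.8 and 394.6 in rAAV9-ST3GAL5.v2. The rAAV9-ST3GAL5.v1 livers were the lowest of all 22, and Hadh fell 1.8-fold (log2 fold change -0.85, SE 0.11, adjusted p = 0.000866). Hadha measured 647.8, 519, 585.3 and 537.5 CPM in PBS, 559.7, 614.9, 617 and 564.6 in AAV9.empty, and 567.5, 556.3, 603.8 and 558.2 in AAV9.EGFP. It measured 357.3, 354.4 and 453.6 CPM in rAAV9-ST3GAL5.v1, 586.3, 499.6 and 611.1 in E332K, and 484.3, 573, 473.6 and 513.4 in rAAV9-ST3GAL5.v2. It fell 1.5-fold with no overlap (log2 fold change -0.59, SE 0.10, adjusted p = 0.00278). Hadhb, its head-to-head neighbour, fell by 0.51 on the log2 scale, and 23.7% of the 31-base words of its transcripts also occur in other genes. The ratio of Hadha to Hadhb in TPM was 0.755 to 0.92 in rAAV9-ST3GAL5.v1, which overlapped the 0.882 to 0.98 of AAV9.empty. Echs1, the enoyl-CoA hydratase, and Acaa2, the thiolase, fell by 0.73 and 0.56 on the log2 scale.

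Of the auxiliary enzymes that handle double bonds, Decr1 (2,4-dienoyl-CoA reductase) and Eci1 (an enoyl-CoA isomerase) were called lower under rAAV9-ST3GAL5.v1, with log2 fold changes of -0.59 and -0.49. Eci2, an isomerase of mitochondria and peroxisomes, was not called (-0.37, adjusted p = 0.0627), although all its rAAV9-ST3GAL5.v1 livers lay below all AAV9.empty livers.

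The electron transfer flavoprotein takes electrons from the acyl-CoA dehydrogenases, and Etfdh passes them to the respiratory chain. All 3 genes were called lower under rAAV9-ST3GAL5.v1: Etfdh by 0.77, Etfa by 0.46 and Etfb, whose reads are partly shared with Gm45233, by 0.39 on the log2 scale. Etfdh measured 163.3, 147.2, 168.6 and 165.2 CPM in PBS, 146.8, 145.8, 154.1 and 134.3 in AAV9.empty, and 130.4, 132.6, 128 and 119.4 in AAV9.EGFP. It measured 81.6, 72.9 and 99.2 CPM in rAAV9-ST3GAL5.v1, 100.8, 115.1 and 111 in E332K, and 120.6, 113.8, 109.7 and 106.8 in rAAV9-ST3GAL5.v2. It was called lower with all 3 ST3GAL5 vectors: log2 fold change -0.77, SE 0.11, adjusted p = 0.00113 for rAAV9-ST3GAL5.v1, log2 fold change -0.42, SE 0.09, adjusted p = 0.00924 for E332K and log2 fold change -0.36, SE 0.08, adjusted p = 0.0196 for rAAV9-ST3GAL5.v2. In each of these comparisons the livers did not overlap with AAV9.empty. AAV9.EGFP livers also lay below every AAV9.empty liver, with a smaller difference that was not called (log2 fold change -0.18, SE 0.06, adjusted p = 0.244). Against AAV9.EGFP in place of AAV9.empty, the log2 fold change with E332K was -0.24 (adjusted p = 0.119). The call for rAAV9-ST3GAL5.v2 was lost without AAV9.empty replicate 1, 2 or 3 or rAAV9-ST3GAL5.v2 replicate 4, with adjusted p-values of 0.0576 to 0.0593. The expected counts of Etfdh were not whole in 72.7% of the livers. Of the 31-base words of its transcripts, 9.18% also occur in other genes, and 3.70% of its exonic bases are shared with opposite-strand gene models.

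The peroxisomal enzymes held the 2 genes of the 30 that edgeR called higher with E332K. Acaa1a and Acaa1b encode the peroxisomal thiolase isoforms, Ehhadh the bifunctional enzyme for straight chains, and Hsd17b4 the other multifunctional enzyme of the peroxisome. Acaa1b measured 354.5, 249.4, 358.4 and 286.2 CPM in PBS, 271.7, 275.7, 262.6 and 277.3 in AAV9.empty, and 265, 237.5, 264.1 and 239.7 in AAV9.EGFP. It measured 218.7, 125.5 and 239.2 CPM in rAAV9-ST3GAL5.v1, 296, 391.6 and 480.8 in E332K, and 319.3, 348.3, 291.8 and 344.4 in rAAV9-ST3GAL5.v2. E332K and rAAV9-ST3GAL5.v2 livers lay above every AAV9.empty liver and rAAV9-ST3GAL5.v1 livers below. The higher level with rAAV9-ST3GAL5.v2 was not called (log2 fold change 0.27, SE 0.08, adjusted p = 0.0697). Acaa1b rose 1.42-fold with E332K (log2 fold change 0.51, SE 0.13, adjusted p = 0.0236), and its lower level with rAAV9-ST3GAL5.v1 was not called (log2 fold change -0.47, SE 0.18, adjusted p = 0.0822). Acaa1b was lower with rAAV9-ST3GAL5.v1 than with E332K in the direct comparison (log2 fold change -0.97, SE 0.26, adjusted p = 0.0324). That call was lost without rAAV9-ST3GAL5.v1 replicate 1 (adjusted p = 0.0749), E332K replicate 2 (0.0782) or E332K replicate 3 (0.117), by limma on log2(TPM + 1) (0.107) and with the hepatocyte markers as the scale (0.0661). Ehhadh measured 203.7, 166.1, 199 and 184.4 CPM in PBS, 149.8, 141.7, 149.1 and 159.4 in AAV9.empty, and 142.9, 144.7, 131.2 and 116.4 in AAV9.EGFP. It measured 123.7, 61.6 and 151.6 CPM in rAAV9-ST3GAL5.v1, 166.4, 209.7 and 268.4 in E332K, and 192.2, 170.0, 119.1 and 137.2 in rAAV9-ST3GAL5.v2. It rose 1.42-fold with E332K (log2 fold change 0.51, SE 0.13, adjusted p = 0.0243) and was not called with rAAV9-ST3GAL5.v1 (log2 fold change -0.41, SE 0.24, adjusted p = 0.237), whose livers overlapped AAV9.empty. The direct comparison of rAAV9-ST3GAL5.v1 with E332K was not called for Ehhadh (log2 fold change -0.91, SE 0.30, adjusted p = 0.0679). Both calls with E332K were lost without E332K replicate 3, the highest liver, with log2 fold changes of 0.34 for Acaa1b and 0.33 for Ehhadh and adjusted p-values of 0.0616 and 0.0639. They were also lost without AAV9.empty replicate 1 or 3, and the call of Ehhadh was lost without AAV9.empty replicate 2 and that of Acaa1b without E332K replicate 2. By limma on the deposited TPM neither gene was called with E332K, with or without the filter on low values and with either pseudocount: on log2(TPM + 1) the differences were 0.35 for both, with adjusted p-values of 0.203 for Acaa1b and 0.214 for Ehhadh. The call of Ehhadh was also lost with all groups in 1 fit (adjusted p = 0.0995). PBS livers stood at 249.4 to 358.4 CPM for Acaa1b and at 166 to 204 CPM for Ehhadh, so the PBS and E332K ranges overlapped for both genes.

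Acaa1a measured 184.5, 148.5, 158.4 and 144.7 CPM in PBS, 139.3, 127.9, 132.1 and 117.9 in AAV9.empty, and 111.3, 130.8, 120.8 and 131 in AAV9.EGFP. It measured 73.1, 93.7 and 86.5 CPM in rAAV9-ST3GAL5.v1, 129.6, 124.2 and 162.3 in E332K, and 120.7, 147.7, 113.8 and 129.3 in rAAV9-ST3GAL5.v2. It fell 1.52-fold with rAAV9-ST3GAL5.v1 (log2 fold change -0.6, SE 0.10, adjusted p = 0.00272) and was not called with E332K (log2 fold change 0.09, SE 0.11, adjusted p = 0.617). Hsd17b4 was called lower with rAAV9-ST3GAL5.v1 (log2 fold change -0.59) and in no other comparison with AAV9.empty. Reads of Acaa1a and Acaa1b are partly shared. Of the 31-base words in the annotated transcripts of Acaa1b, 50.1% also occur in other genes, most of them in Acaa1a, so their split between both genes is an estimate of the counting program. The ratio of Acaa1b to Acaa1a in TPM was 2.12 to 2.53 in AAV9.empty, 2.50 to 3.49 in E332K and 2.59 to 2.97 in rAAV9-ST3GAL5.v2, and it spread from 1.43 to 3.27 in rAAV9-ST3GAL5.v1. Both genes lie on chromosome 9, 182582 bases apart. The 250 bases before their RefSeq starts are shown because the pair are paralogs with partly shared reads, with the CCAAT box word in capitals on either strand (ATTGG on the opposite strand), a word found in 37.4% of all windows.
Acaa1a, chr9:119341044-119341293, plus strand: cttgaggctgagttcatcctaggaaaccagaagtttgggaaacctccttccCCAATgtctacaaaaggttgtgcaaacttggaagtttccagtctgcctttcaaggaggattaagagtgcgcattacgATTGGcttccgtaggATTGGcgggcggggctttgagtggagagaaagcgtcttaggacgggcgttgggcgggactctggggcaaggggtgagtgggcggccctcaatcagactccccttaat
Acaa1b, chr9:119157094-119157343, minus strand: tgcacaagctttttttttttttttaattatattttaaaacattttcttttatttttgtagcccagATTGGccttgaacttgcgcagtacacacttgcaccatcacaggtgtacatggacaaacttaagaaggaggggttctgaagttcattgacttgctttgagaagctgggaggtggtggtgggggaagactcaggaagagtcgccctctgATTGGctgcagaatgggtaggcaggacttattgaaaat
Over the 300 bases of each window, the same base stood at the same distance from the start in 29.3% of positions.

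Both ketone body genes fell under rAAV9-ST3GAL5.v1. Acat1 (chr9:53580522-53610382, minus strand), the mitochondrial acetoacetyl-CoA thiolase, measured 665.2, 568.3, 642.4 and 627.9 CPM in PBS, 634.9, 639.2, 651.8 and 568.8 in AAV9.empty, and 545, 613.1, 585.8 and 587.1 in AAV9.EGFP. It measured 327.7, 350.6 and 369.7 CPM in rAAV9-ST3GAL5.v1, 544.4, 480.0 and 534.6 in E332K, and 540.6, 616.9, 495.8 and 497.7 in rAAV9-ST3GAL5.v2. The 3 rAAV9-ST3GAL5.v1 livers were close together and below all others, and Acat1 fell 1.77-fold (log2 fold change -0.82, SE 0.08, adjusted p = 0.000215). Bdh1, which interconverts acetoacetate and 3-hydroxybutyrate, measured 713.7, 604.6, 636.1 and 615.9 CPM in PBS, 582.1, 627.8, 680.9 and 616.5 in AAV9.empty, and 627.1, 693.3, 685.7 and 703.8 in AAV9.EGFP. It measured 476, 408 and 531.5 CPM in rAAV9-ST3GAL5.v1, 750.5, 678.3 and 837.1 in E332K, and 571.1, 708.9, 594.7 and 605 in rAAV9-ST3GAL5.v2. It fell 1.32-fold (log2 fold change -0.4, SE 0.10, adjusted p = 0.0165).

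**Figure D4:**
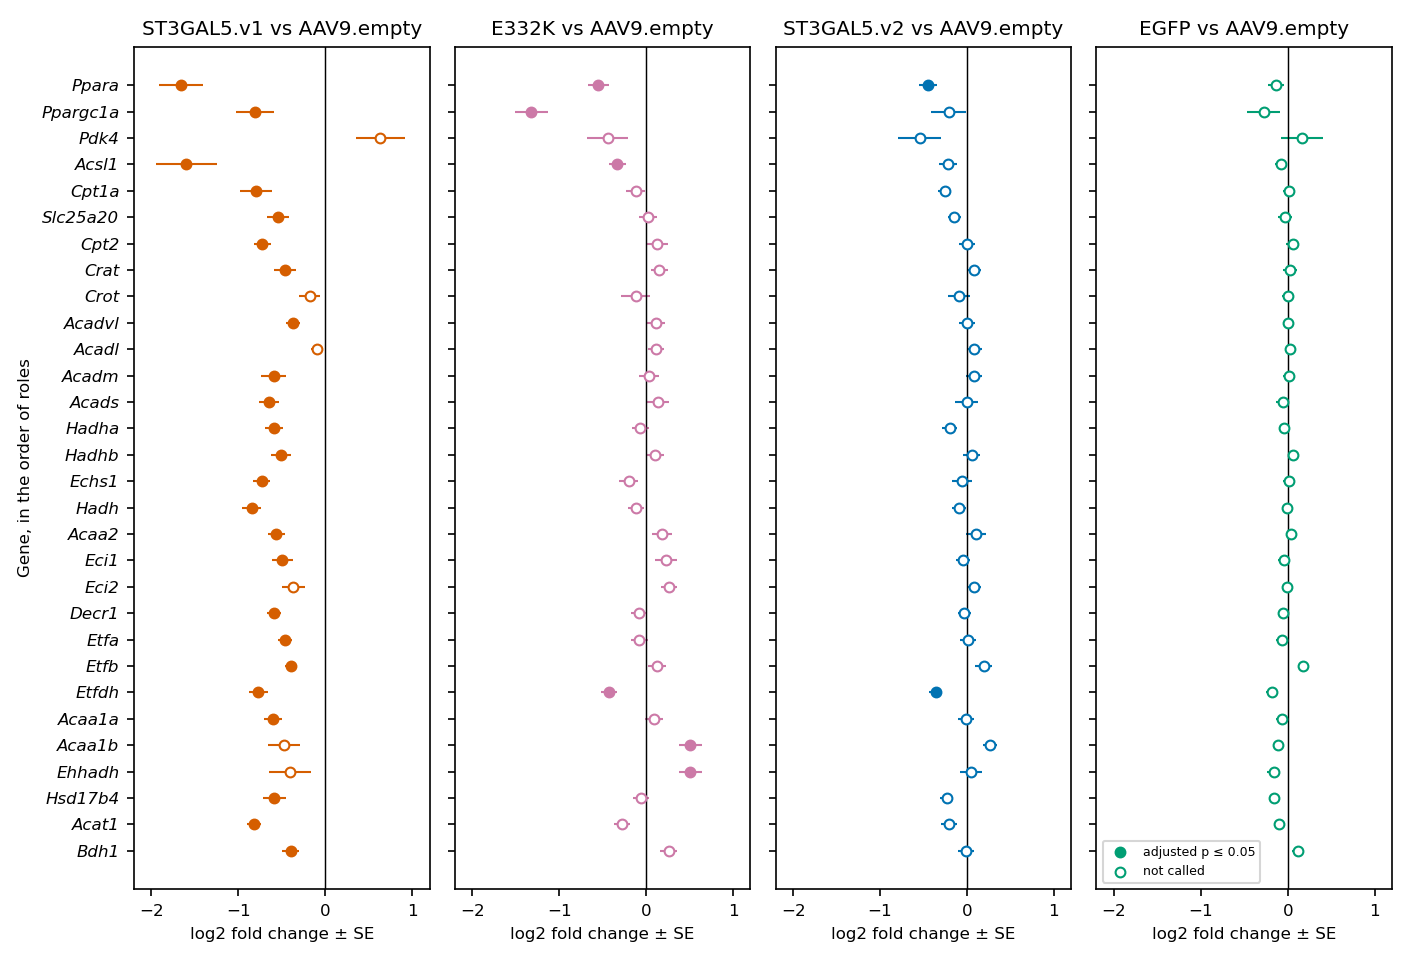
Log2 fold change against AAV9.empty for the 30 genes (rows, in the order of their roles), with bars of 1 SE, in 4 panels for rAAV9-ST3GAL5.v1, E332K, rAAV9-ST3GAL5.v2 and AAV9.EGFP. Filled points are called at an adjusted p of at most 0.05: 24 genes, all lower, in the panel of rAAV9-ST3GAL5.v1, 6 in that of E332K, 2 in that of rAAV9-ST3GAL5.v2 and 0 in that of AAV9.EGFP.

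With E332K, few of the 30 genes were called. Relative to AAV9.empty, 4 genes fell (Ppargc1a, Ppara, Etfdh and Acsl1) and 2 rose (Acaa1b and Ehhadh), or 13.3% and 6.67% of the 30, beside 7.09% lower and 7.93% higher among the 14759 genes tested. The median log2 fold change was 0.03. E332K livers lay below every AAV9.empty liver in 5 genes and above in 4, separations seen in 13.1% and 13.8% of all genes tested. None of the 9 mitochondrial dehydrogenases and other spiral enzymes was called, with log2 fold changes between -0.20 and 0.18, and the tool's unadjusted p was under 0.05 for 9 of the 30 genes in all. The share of all genes tested at an unadjusted p under 0.05 is not given, here or below. Such numbers are therefore not read as a result about the 30 genes. The count of higher genes was 0 without AAV9.empty replicate 1 or 3 or E332K replicate 3 and 1 without AAV9.empty replicate 2, and the count of lower genes was 2 without E332K replicate 1. The 3 limma fits on TPM called 0 genes higher. E332K replicate 3 was the highest of its group in 22 of the 30 genes. Its erythroid markers summed to 28586 CPM, beside 56244 and 60571 CPM in replicates 1 and 2, so its mix of cells may differ. Its hepatocyte markers summed to 116004 CPM, beside 117636 and 103397 CPM in replicates 1 and 2. The part of the mix of cells in the order of the livers was not tested. Hepatocyte markers summed to between 103397 and 117636 CPM in this group, with 3 of 13 called lower and 1 higher.

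With rAAV9-ST3GAL5.v2, edgeR called Ppara and Etfdh, both lower. That is 6.67% of the 30 genes, beside 2.5% lower and 2.88% higher among the 14558 genes tested. The median log2 fold change was -0.02, and 8 genes had an unadjusted p under 0.05. DESeq2 called 4 genes lower and 1 higher, each of the 3 limma fits on TPM called 4 lower and 0 higher, and with the hepatocyte markers as the scale 0 were called. Of 8 libraries left out in turn, 4 (AAV9.empty replicates 1, 2 and 3 and rAAV9-ST3GAL5.v2 replicate 4) each left 0 genes called lower, and without rAAV9-ST3GAL5.v2 replicate 3 the count was 1. Hepatocyte markers summed to between 109001 and 134346 CPM, with 0 of 13 called. Replicate 2 of rAAV9-ST3GAL5.v2 was the highest of its group in 21 of the 30 genes. Its erythroid markers summed to 27136 CPM, beside 37063 to 54431 CPM in the other livers of the group.

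Among the controls no member was called. AAV9.EGFP against AAV9.empty called 0 genes higher and 0 lower by edgeR, beside 0.387% and 0.0553% of all genes tested, with 4 genes at an unadjusted p under 0.05 and 1 gene called higher by DESeq2. AAV9.empty against PBS also called 0 and 0 by edgeR, beside 0.104% and 0.207%, with 6 genes at an unadjusted p under 0.05 and 3 called lower by DESeq2. In the latter comparison 23 of 30 log2 fold changes were negative. Ehhadh, Acaa1a and Acadm had the most negative values, -0.33, -0.30 and -0.28, with AAV9.empty livers below all PBS livers and adjusted p-values of 0.0881, 0.15 and 0.119.

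The comparisons with AAV9.empty share its 4 livers, so the vectors were also compared with each other. Those of rAAV9-ST3GAL5.v1 in turn share its 3 livers, so their counts are not independent of each other. rAAV9-ST3GAL5.v1 against AAV9.EGFP, which has the same promoter and another cargo, called 23 genes lower and 0 higher, beside 15.1% and 12.7% of genes tested, with Acsl1, Ppara and Hadh the most changed (-1.54, -1.54 and -0.84 on the log2 scale). The 3 limma fits on TPM called 15, 13 and 12 lower and the hepatocyte scale 7. Against rAAV9-ST3GAL5.v2, 19 genes were lower and Pdk4 was higher, beside 11.3% and 12.1%, with Acsl1, Ppara and Pdk4 the most changed (-1.37, -1.2 and 1.2). Without rAAV9-ST3GAL5.v1 replicate 1 the count of lower genes was 5, and without rAAV9-ST3GAL5.v2 replicate 1 it was 11. The limma fits gave 6, 5 and 5 lower genes and the hepatocyte scale 6. Against E332K, 21 genes were lower and Pdk4 was higher, beside 10% and 9.55%, with Acsl1, Ppara and Pdk4 the most changed (-1.26, -1.1 and 1.09). The median log2 fold change in this comparison was -0.61, and every rAAV9-ST3GAL5.v1 liver lay below every E332K liver in 27 genes, a separation seen in 23% of all genes tested. The counts of both comparisons depended on single livers. The count of lower genes was 0 without rAAV9-ST3GAL5.v1 replicate 1, 1 without E332K replicate 3, 5 without E332K replicate 1 and 13 without rAAV9-ST3GAL5.v1 replicate 2 or E332K replicate 2. The limma fits gave 2 lower genes each and the hepatocyte scale 5. Pdk4 stayed called in each of these. Between E332K and AAV9.EGFP, Ppargc1a (-1.04) and Ppara (-0.41) were lower and Ehhadh (0.67) and Acaa1b (0.62) higher, beside 3.65% lower and 4.25% higher among genes tested. The 2 lower calls became 0 without AAV9.EGFP replicate 1 or 3 and 1 without AAV9.EGFP replicate 2 or 4 or E332K replicate 1 or 3, and the 2 higher calls became 1 without AAV9.EGFP replicate 2 or 4. Each of the 3 limma fits called 0 lower and 0 higher, Ppara turned to the opposite direction in them as given above, and with the hepatocyte scale 0 genes were lower and 3 higher.

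Other genes of the same and of neighbouring pathways were counted in rAAV9-ST3GAL5.v1 against AAV9.empty, where 14.3% of all genes tested were called lower and 13.8% higher. Of 26 other mitochondrial fatty acid and ketone genes tested, 15 were lower and 4 higher, with a median log2 fold change of -0.39. Among them, Acad10, an acyl-CoA dehydrogenase family member, and Mlycd, malonyl-CoA decarboxylase, fell by 0.80 and 0.95, and Slc16a6, a transporter of ketone bodies, rose by 0.59 on the log2 scale. Of 36 other peroxisomal genes, 24 were lower and 1 higher (median -0.48). Pecr, a peroxisomal enoyl-CoA reductase, Pxmp2, a channel protein of the peroxisomal membrane, Pex5, the import receptor, and Acox2, the oxidase for branched chains, fell by 1.14, 1.43, 0.71 and 1.33.

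Of 25 other PPARA targets tested, 5 were lower and 5 higher in the same comparison, with a median log2 fold change of -0.29. The lipid droplet genes Cidec and Plin2 rose by 3.34 and 0.87 and Angptl4, an inhibitor of lipoprotein lipase, rose by 0.76, while Plin5, a droplet protein of oxidative tissues, fell by 1.26. Of 31 other regulators, 9 were lower and 2 higher (median 0.02). The transcription factors Foxa2, Klf15 and Foxo1 fell by 1.48, 1.32 and 0.52, and Pdk2, another pyruvate dehydrogenase kinase, fell by 1.30. Of 24 fatty acid and triglyceride synthesis genes, 9 were lower and 0 higher (median -0.18), including the lipogenic factor Srebf1 (-0.93), Agpat2 (-0.60), Dgat2 (-0.79) and the desaturase Fads1 (-0.80). Of 24 genes of the citric acid cycle and pyruvate entry, 13 were lower and 0 higher (median -0.27), including Suclg2, Sdha, Sdhd and Suclg1 (-0.47, -0.41, -0.51 and -0.53).

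**Figure D5:**
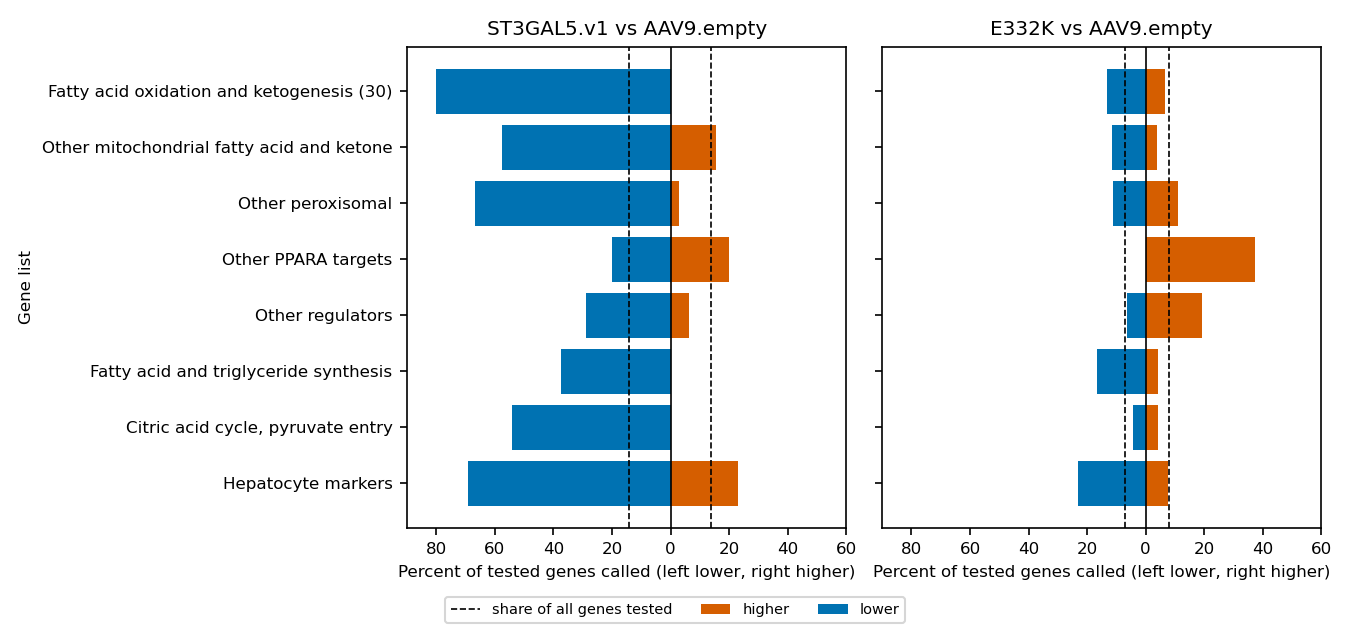
Percent of the tested genes of each list called lower (bars to the left) or higher (bars to the right) in rAAV9-ST3GAL5.v1 and in E332K against AAV9.empty, with dashed lines at the share of all genes tested (14.3% lower and 13.8% higher, then 7.09% lower and 7.93% higher). The 30 genes reach 80% lower with rAAV9-ST3GAL5.v1, and other PPARA targets reach 37.5% higher with E332K.

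With E332K against AAV9.empty, 9 of 24 other PPARA targets tested (37.5%) were higher and 0 lower, with a median log2 fold change of 0.20. Among all genes tested, 7.93% were called higher and 7.09% lower. The 9 were Cidec, Cyp4a31, Retsat, Fgf21, Acot1, Angptl4, Cyp4a32, Plin2 and Vnn1, named after their values were seen, with log2 fold changes between 0.40 and 2.10. Fgf21, a hormone of the fasting liver, measured 12.5, 31.2 and 19.7 CPM in E332K and 6.64, 4.55, 11.0 and 10.5 CPM in AAV9.empty. In AAV9.empty against PBS, 3 of 25 other PPARA targets tested (12%) were lower and 0 higher. Among all genes tested there, 0.207% were lower and 0.104% higher. The list summed to 3865 to 4643 CPM in E332K, 3874 to 4077 CPM in AAV9.empty and 3802 to 4634 CPM in PBS, ranges that overlapped. The other peroxisomal genes gave 4 higher and 4 lower of 36 (11.1% each). The other mitochondrial genes gave 1 higher (3.85%) and 3 lower (11.5%) of 26. The counts of these lists were not repeated under the alternatives or with 1 liver left out, so how far they hold was not tested.

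Some markers of other cell types differed in rAAV9-ST3GAL5.v1 as well. Of 12 neutrophil markers, 11 were called higher and 0 lower against AAV9.empty, and their summed level was 2651 to 2932 CPM beside 1765 to 1919 CPM. Of 14 erythroid markers, 5 were higher and 0 lower, with sums of 39924 to 46607 CPM and 38583 to 48058 CPM that overlapped. Of 11 Kupffer cell and macrophage markers, 6 were lower and 0 higher, with sums of 1041 to 1410 CPM and 1275 to 1767 CPM that overlapped. Of 9 sinusoidal endothelial markers, 3 were lower and 2 higher, with sums of 309 to 377 CPM and 366 to 431 CPM that overlapped. Among all genes tested, 14.3% were called lower and 13.8% higher. Among the hepatocyte markers, Ttr, Apoa2 and Apoa1 fell by 0.71, 0.66 and 0.65 on the log2 scale and Fgb, the fibrinogen beta chain, rose by 0.99. Scaling to the hepatocyte markers is given above, and with erythroid markers as a covariate the median log2 fold change of the 30 genes was -0.61. Beyond these 2 alternatives, the part of these markers in the lower level of the 30 genes was not tested.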

How the data were processed

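Poly(A) RNA from 22 livers was sequenced in 6 groups, and the authors trimmed reads with Trimmomatic, aligned them to mm10 with STAR and estimated expression with RSEM. The release of the GENCODE annotation used is not given in the sources used here. The deposited tables hold RSEM expected counts per gene, which need not be whole (5.69% of values were not whole), and TPM, which the authors' program scaled by transcript length and library. Expected counts were rounded before testing.

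Each comparison was fitted on its own groups with edgeR 4.0.16 (R 4.3.3) by TMM scaling, the default filter on low counts and the quasi-likelihood test, without a replicate term, with Benjamini-Hochberg adjustment over all genes tested and a threshold of 0.05. SE is the log2 fold change divided by the square root of F. Alternatives used DESeq2 1.42.0, limma 3.58.1 on log2(TPM + 1) or log2(TPM + 0.1), 1 fit of all groups, a replicate block, erythroid markers as a covariate and each liver left out. The human transgene was not analysed here. In simulated counts for rAAV9-ST3GAL5.v1 against AAV9.empty (14636 genes), 78% of genes changed 2-fold were called, as were 12 unchanged genes. Far fewer genes were changed there than were called in the data, and none by less than 2-fold. The simulation thus does not give the share called among smaller changes.

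The 30 genes, the lists and the markers were chosen with earlier results of these data known. Values in every liver are given for 12 genes chosen by role and for the 4 called genes with the largest absolute log2 fold change in each comparison with AAV9.empty; elsewhere the 3 such genes are named, and of each other list up to 4 genes with the smallest adjusted p in rAAV9-ST3GAL5.v1 against AAV9.empty. Exonic overlap and shared 31-base words were taken from the GENCODE annotation of GRCm38, which may not be the release the authors used. Some genes of the other lists are counted but their values are not reported here.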

Additional observations from a re-analysis of the deposited data

Results flagged for a closer look

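In groups of 4 livers, 1 liver stood apart from the other 3 (Dixon's test at the 95% level) in 6 of the 140 groups tested, where chance gives about 1 in 20. Slc25a20 was lowest in AAV9.empty replicate 1, at 75.5 CPM beside 83.6 to 84.5 CPM in the others. Acadvl was lowest in AAV9.EGFP replicate 4, at 380.8 CPM beside 402.5 to 405.6 CPM. Ppara was highest in AAV9.EGFP replicate 2, at 51.7 CPM beside 42.3 to 43.8 CPM. Pdk4 was highest in AAV9.EGFP replicate 1, at 45.9 CPM beside 25.7 to 28.8 CPM. Ppargc1a was highest in rAAV9-ST3GAL5.v2 replicate 1, at 9.17 CPM beside 4.76 to 5.36 CPM. The summed hepatocyte markers were highest in PBS replicate 1, at 157580 CPM beside 125166 to 130050 CPM.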

How the results depend on the processing

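Values are counts of the 30 genes called, without the share of all genes called in the same setting. For rAAV9-ST3GAL5.v1 against AAV9.empty, limma on log2(TPM + 1), log2(TPM + 0.1) and log2(TPM + 1) without a filter called 14, 15 and 13 lower, hepatocyte scaling 10 lower and 1 higher, the replicate block 1 higher, and a fold of at least 2 left 2 lower. For E332K against AAV9.empty, the higher count was 4 by DESeq2, 1 with all groups in 1 fit, 0 with the replicate block, 0 by all 3 limma fits, 6 with the erythroid covariate, 4 with hepatocyte scaling and 0 at a fold of at least 2, and the lower count was 2 by limma on log2(TPM + 0.1) and 1 at that fold. With rAAV9-ST3GAL5.v2 (reference AAV9.empty), DESeq2 called 1 higher and 4 lower, each limma fit 4 lower, the fit of all groups 1 lower, the erythroid covariate 1 higher, and hepatocyte scaling and the 2-fold limit 0 lower. DESeq2 called 1 higher for AAV9.EGFP against AAV9.empty and 3 lower for AAV9.empty against PBS, where no filter gave 1 higher and 1 lower. For rAAV9-ST3GAL5.v1, the lower count against E332K was 2 in each limma fit, 5 with hepatocyte scaling and 2 at 2-fold. Against AAV9.EGFP it was 15, 13 and 12 by limma, 7 with hepatocyte scaling (1 higher) and 2 at 2-fold. Against rAAV9-ST3GAL5.v2 it was 6, 5 and 5 by limma, 6 with the replicate block, 6 with hepatocyte scaling and 2 at 2-fold. For E332K against AAV9.EGFP, all 3 limma fits gave 0 higher and 0 lower, DESeq2 4 lower, the fit of all groups 1 lower, the block 0 higher, the erythroid covariate 5 higher, hepatocyte scaling 0 lower, and the 2-fold limit 0 higher and 1 lower. Ppara reversed by limma on log2(TPM + 1), log2(TPM + 0.1) and log2(TPM + 1) without a filter, to 0.102, 0.104 and 0.102 for E332K and 0.127, 0.129 and 0.127 for rAAV9-ST3GAL5.v2, both relative to AAV9.empty, and to 0.305, 0.312 and 0.305 for E332K against AAV9.EGFP, and the cause was not tested.

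Leaving out 1 liver at a time gave, for rAAV9-ST3GAL5.v1, 0 to 1 higher and 19 to 27 lower against AAV9.empty, 0 to 23 lower against E332K, 0 to 1 higher and 18 to 25 lower against AAV9.EGFP and 5 to 24 lower against rAAV9-ST3GAL5.v2. For E332K it gave 0 to 2 higher and 2 to 5 lower against AAV9.empty and 1 to 3 higher and 0 to 2 lower against AAV9.EGFP. For rAAV9-ST3GAL5.v2 the lower count against AAV9.empty ran from 0 to 3. In no comparison did every same-numbered pair correlate above 0.1 (for rAAV9-ST3GAL5.v1 with AAV9.empty, 0.0164 to 0.0913), so the block is not read as a pairing. Same-numbered pairs ran from 0.0107 to 0.275 for AAV9.EGFP with AAV9.empty and from -0.11 to -0.0348 for E332K with AAV9.empty. Whether same-numbered livers shared a batch was not tested. On log2(TPM + 1) the median of all genes was 0.11 for rAAV9-ST3GAL5.v1 and -0.10 for E332K, both relative to AAV9.empty, and 0.18 between rAAV9-ST3GAL5.v1 and E332K, while the 30 genes stood at -0.47, -0.11 and -0.35. Of 2554 values of single genes under the alternatives, 28 changed sign, 9 of them in a called gene, Ppara.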
